A study of Homo sapiens with 11 samples.

Results

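Vimentin (VIM) and 7 genes of the neuronal intermediate filaments, NEFL, NEFM, NEFH, INA, PRPH, NES and SYNM, were examined in cells of the human lung adenocarcinoma lines A549 and HCC827 after stable transfection. The members were chosen by name, with earlier results of these arrays known, and every probe of theirs was taken, so that 8 genes with 10 probes were followed among 20245 named genes and 42405 probes. Because the same signals had led to the choice of these genes, their differences between groups are given as a description with their spread. Calls by a test over all probes are given for them only as counts beside the share of all probes called, and support nothing. The companion genes described further below were also chosen with earlier results of these arrays known. Their adjusted p-values come from the fit over all probes and are likewise a description, not independent tests.

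Cells of both lines had received a retroviral vector with a neomycin resistance gene and had been selected with G418. The vector was empty in the mock cells and carried the full coding sequence of TRIM58 with a FLAG tag in the cells labelled TRIM58-WT. TRIM58 belongs to the tripartite motif family of ubiquitin ligases, and the arrays were run to ask which mRNAs differ when it is overexpressed. For A549 there were 3 mock replicates, hybridised to 4 arrays, and 3 replicates labelled TRIM58-WT, while HCC827 had 2 of each kind. Mock arrays 1-1 and 1-2 of A549 carry the label of the same control cell and were averaged to 1 replicate. Clones were isolated from such transfectants in the study, whereas its HCC827 transfectants were described as crude. The labels do not say which replicates come from separate clones or cultures, so the spread between replicates may be technical in part.

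The level of a probe is given throughout as the log2 of its processed signal minus the 75th percentile of its array, so that a level of 0 is the signal of a probe brighter than 75% of the probes. The scanner software marks a spot as well above background or not, and a probe below that mark has only an upper bound. Of the probes, 40.07% to 49.99% were well above background on an array, and the 75th percentile was a signal of 56.583 to 125.393. The probe for TRIM58 did not check the labels: the arrays labelled TRIM58-WT gave it levels of -5.64 to -4.63, none well above background, and its position in the transcript is not given in the sources used here. The same probe was well above background on A549 mock replicate 3, at -0.71, against -5.33 to -5.18 on the other A549 mock arrays. That array also stood apart for vimentin, and the A549 differences of the filament genes are therefore given with and without it. It was not alone, however. Mock replicate 3 and TRIM58-WT replicates 2 and 3 had low 75th percentiles, 60.292, 62.482 and 56.583. On the other A549 arrays, TRIM58-WT replicate 1 among them, these were 90.487 to 102.873. Leaving out mock replicate 3 alone does not balance this division, and its cause was not tested.

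Intermediate filaments are ropes of coiled-coil proteins that give a cell mechanical strength. Simple epithelia build theirs from keratins, mesenchymal cells from vimentin, and neurons from the neurofilament triplet of light, medium and heavy chains (NEFL, NEFM, NEFH) together with alpha-internexin (INA) and, in peripheral neurons, peripherin (PRPH). Nestin (NES) and synemin (SYNM) are large proteins that do not form filaments by themselves and copolymerise with vimentin or desmin. Vimentin in a carcinoma cell is widely used as a mark of a mesenchymal state, and carcinoma lines in culture often carry keratin and vimentin filaments side by side.

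Of the 8 genes, VIM, SYNM, PRPH and INA were well above background in both lines, NEFL was so in A549 mock cells alone, NES and NEFH lay near background, and NEFM stayed below that mark on all 11 arrays. In A549, the arrays labelled TRIM58-WT had lower NEFL and INA and, apart from mock replicate 3, higher VIM. In HCC827, VIM and PRPH were higher and INA lower on both arrays labelled TRIM58-WT than on both mock arrays.

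**Figure D1:**
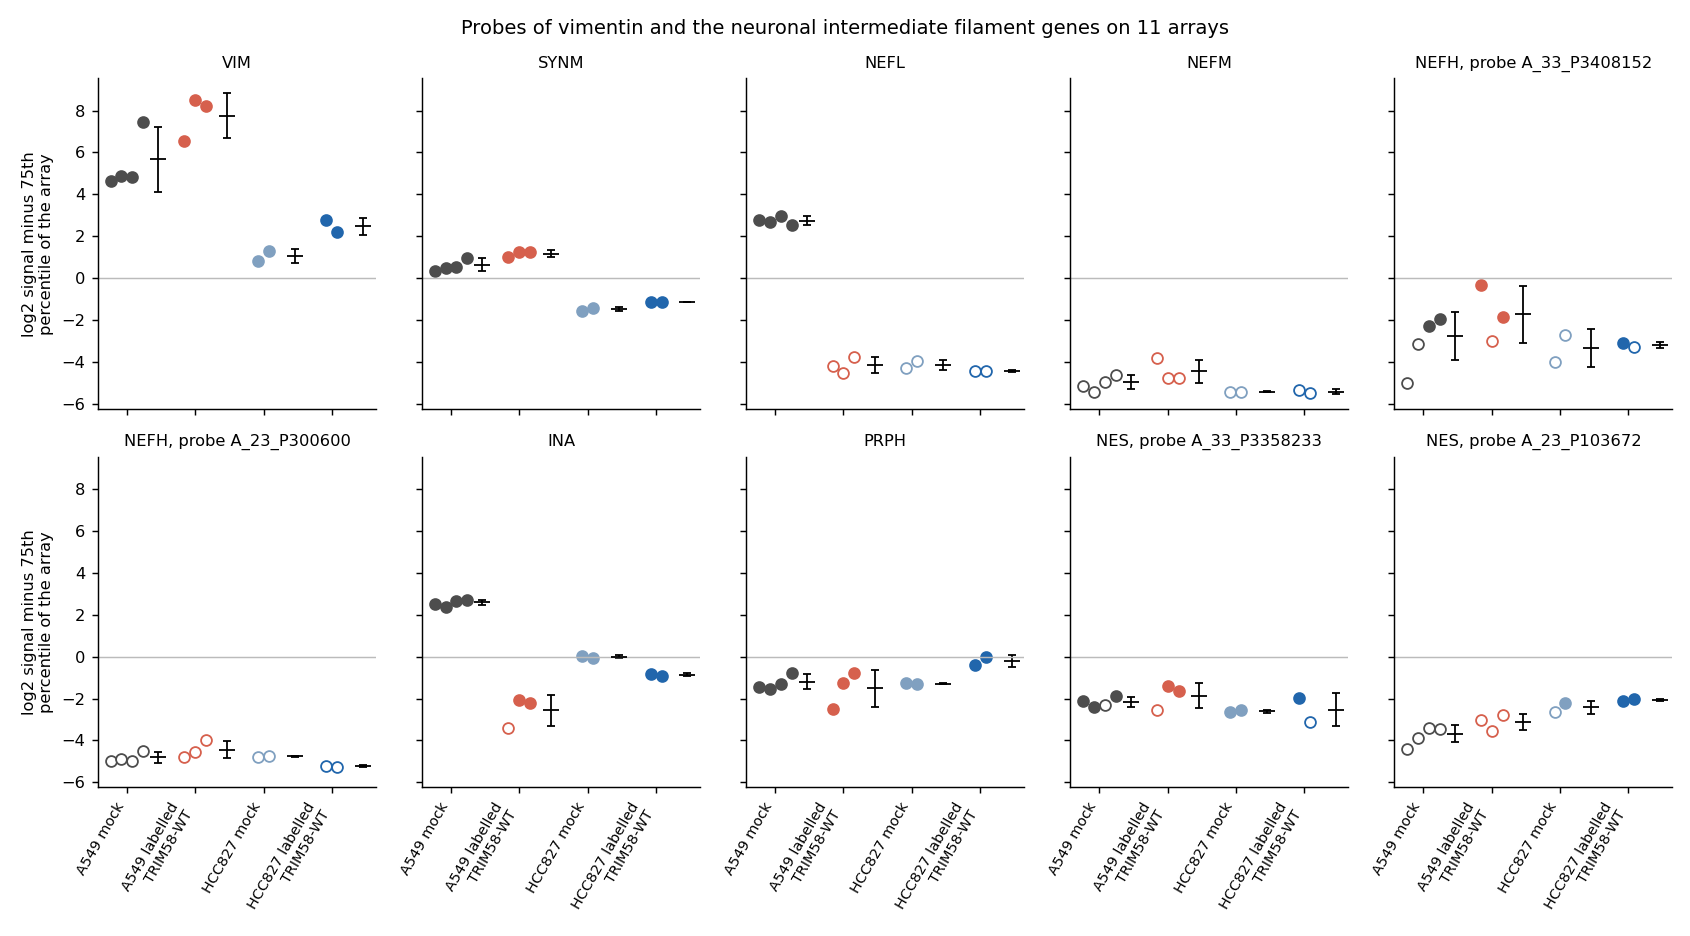
Level of each of the 10 probes (log2 signal minus the 75th percentile of the array) on the 11 arrays, by group. Filled circles mark signals well above background, open circles the others, and the bar beside each group is the mean ± SD over replicates, with mock arrays 1-1 and 1-2 averaged. VIM in A549 mock cells ran from 4.65 to 7.48, with mock replicate 3 above TRIM58-WT replicate 1, whereas NEFL and INA of the A549 groups lay apart.

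The 250 bases upstream of the annotated start are shown for 3 of the genes measured in both lines. These are VIM, SYNM with a profile close to it, and INA, which within each line was lower on the arrays on which VIM was mostly higher. Sequences are those of RefSeq on GRCh38.p14, plus strand for all 3, and 5 of the 8 genes had an entry. Capitals mark the GC box (GGGCGG, or CCGCCC on the other strand), to which factors of the SP1 family bind, and the E2 box (CAGGTG, or CACCTG), the recognition sequence of the ZEB and SNAI repressors.
VIM chr10:17227991-17228240: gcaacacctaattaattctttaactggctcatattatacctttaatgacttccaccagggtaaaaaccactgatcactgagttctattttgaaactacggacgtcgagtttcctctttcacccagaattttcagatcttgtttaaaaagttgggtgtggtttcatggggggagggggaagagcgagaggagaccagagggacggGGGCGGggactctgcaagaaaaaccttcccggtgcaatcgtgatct
SYNM chr15:99104830-99105079: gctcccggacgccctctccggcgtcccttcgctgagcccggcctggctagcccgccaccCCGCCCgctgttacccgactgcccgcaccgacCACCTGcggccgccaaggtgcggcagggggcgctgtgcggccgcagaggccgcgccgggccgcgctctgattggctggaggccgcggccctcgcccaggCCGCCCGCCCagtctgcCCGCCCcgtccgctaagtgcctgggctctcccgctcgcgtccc
INA chr10:103276888-103277137: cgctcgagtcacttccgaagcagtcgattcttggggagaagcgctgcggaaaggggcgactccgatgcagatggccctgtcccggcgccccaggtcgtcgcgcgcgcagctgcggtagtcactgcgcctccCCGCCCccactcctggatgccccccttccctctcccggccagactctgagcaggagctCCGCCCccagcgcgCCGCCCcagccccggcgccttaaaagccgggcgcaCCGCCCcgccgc

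In these windows VIM held 1 GC box, while INA and SYNM held 4 each. Of 35116 upstream windows of the same length in the table, 42.6% held at least 1. An E2 box stood in the window of SYNM alone among the 5 genes and in 17.5% of all windows. PRPH had no GC box but a TATA box (TATAAA) starting 31 bases before the start site, which 10.72% of windows held on either strand. The window of VIM was 46.0% G and C, that of INA 72.8% and that of SYNM 78.8%, around a median of 58.0% over all windows. The ratio of observed to expected CpG was 0.613 for VIM, 0.938 for INA and 0.905 for SYNM, with a median of 0.558. Such matches describe the letters of the window and say nothing of what binds there.

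Vimentin, the type III filament protein of mesenchymal cells, was read by probe A_23_P161190 (chromosome 10), which was well above background on all 11 arrays. In A549 mock cells its levels were 4.65 on array 1-1, 4.86 on array 1-2, 4.81 on replicate 2 and 7.48 on replicate 3. In the A549 replicates labelled TRIM58-WT they were 6.53, 8.50 and 8.21. The HCC827 mock levels were 0.82 and 1.28, and those labelled TRIM58-WT were 2.76 and 2.20. The 3 mock arrays other than replicate 3 thus lay within a narrow band below every array labelled TRIM58-WT, and mock replicate 3 lay among the latter, so the A549 groups overlapped. In HCC827 the groups did not overlap. In RNA of whole cultures, fewer cells with a transcript and less of it per cell cannot be told apart.

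From the highest to the lowest group mean, VIM was at 7.75 ± 1.07 (SD, n = 3) in A549 labelled TRIM58-WT, 5.68 ± 1.55 (SD, n = 3) in A549 mock, 2.48 ± 0.40 (SD, n = 2) in HCC827 labelled TRIM58-WT and 1.05 ± 0.32 (SD, n = 2) in HCC827 mock. The first 2 of these neighbours did not differ beyond their spread. The difference in A549 was 2.06 on the log2 scale (SE 0.87), or 4.18-fold, and it was 2.96 without mock replicate 3. In HCC827 it was 1.43 (SE 0.27), or 2.69-fold. The difference between these differences was 0.64 (SE 1.23), an error too wide to order the lines.

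The A549 arrays lay on 2 slides, and slide 1 held all 4 HCC827 arrays. Within slide 1 the A549 difference of VIM was 1.79, and within slide 2 it was 2.19. Mock replicate 3 was on slide 2 together with mock array 1-2, so that the gap between 7.48 and 4.86 for VIM arose among mock arrays of 1 slide.

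Synemin, a partner of vimentin and desmin in muscle and other cells, was read by probe A_24_P104407 (chromosome 15) and was well above background on all 11 arrays. In A549 mock cells SYNM was at 0.35, 0.48, 0.56 and 0.98 on arrays 1-1, 1-2, 2 and 3. In A549 labelled TRIM58-WT it was at 0.99, 1.27 and 1.25. HCC827 gave -1.55 and -1.42 in mock cells and -1.13 and -1.15 in cells labelled TRIM58-WT. The groups did not overlap in either line, although in A549 the gap between mock replicate 3 and TRIM58-WT replicate 1 was only that between 0.98 and 0.99. The differences were small, 0.52 (SE 0.21) in A549, 0.68 without mock replicate 3, and 0.34 (SE 0.13) in HCC827.

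Over the 10 samples, SYNM and VIM had the closest pattern of any pair of measured members, with a Pearson correlation of 0.97, which mostly follows the gap between the lines. The correlation of INA with NEFL was 0.87, and that of VIM with NEFL 0.23. These 10 samples come from 2 lines on 2 slides, so the coefficients describe the arrays and carry no test.

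NEFL, the light chain on which the neurofilament triplet is assembled, was read by probe A_33_P3287785 on chromosome 8. It was at 2.79, 2.69, 2.95 and 2.55 on the A549 mock arrays 1-1, 1-2, 2 and 3, each well above background. On the A549 arrays labelled TRIM58-WT it was at -4.17, -4.50 and -3.76, none of them well above background. All 4 HCC827 arrays were at -4.44 to -3.96 and not well above background either. NEFL was thus present on every A549 mock array, replicate 3 included, and not above background on any other array.

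Since the A549 signal labelled TRIM58-WT is only a bound, it was replaced on each array by that of the dimmest probe still well above background, where this was the higher, which put NEFL at least 41.5-fold lower in A549 labelled TRIM58-WT than in A549 mock. By the same bound it was at least 63.1-fold higher in A549 mock than in HCC827 mock. The mean levels were 2.75 ± 0.20 (SD, n = 3) in A549 mock and -4.14 ± 0.37 (SD, n = 3) in A549 labelled TRIM58-WT. Their difference was -6.89 (SE 0.24), and -6.99 without mock replicate 3. Within slides it was -7.05 on slide 1 and -6.75 on slide 2. The level of -4.14 comes from signals not well above background, so these sizes are fitted values and not measured ones. Over the 379 genes of chromosome 8 that were tested in A549, the median difference was -0.49, against 0.03 over the 1134 genes of chromosome 1, and what part of the NEFL difference moved with the chromosome was not tested. In HCC827 both NEFL groups were below background, and no fold is given.

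The partners of NEFL in the triplet were not measured at a level that allows a comparison. NEFM, the medium chain, also on chromosome 8, had levels of -5.49 to -3.82 (probe A_33_P3249534) and was well above background on 0 of 11 arrays. For NEFH, the heavy chain, encoded on chromosome 22, probe A_23_P300600 had levels of -5.26 to -4.00 and was likewise never well above background. The other NEFH probe, A_33_P3408152, was well above background on 5 arrays: A549 mock replicates 2 and 3 at -2.30 and -1.93, A549 TRIM58-WT replicates 1 and 3 at -0.31 and -1.86, and HCC827 TRIM58-WT replicate 1 at -3.09. Its levels within A549 mock cells ran from -4.99 to -1.93, and the A549 groups overlapped. Mock arrays 1-1 and 1-2, which carry 1 label, differed from each other on it, at -4.99 and -3.12.

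Alpha-internexin, a type IV filament protein that joins the triplet in central neurons, was read by probe A_23_P35444 on chromosome 10. INA was at 2.51, 2.38, 2.64 and 2.69 on A549 mock arrays 1-1, 1-2, 2 and 3. In A549 labelled TRIM58-WT it was at -3.40, which was not well above background, and at -2.09 and -2.19, which were. HCC827 mock cells were at 0.04 and -0.06, and those labelled TRIM58-WT at -0.81 and -0.91. The groups lay apart in both lines, and mock replicate 3 was the highest of the A549 mock arrays.

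The order of the INA means was 2.59 ± 0.13 (SD, n = 3) in A549 mock, -0.01 ± 0.07 (SD, n = 2) in HCC827 mock, -0.86 ± 0.07 (SD, n = 2) in HCC827 labelled TRIM58-WT and -2.56 ± 0.73 (SD, n = 3) in A549 labelled TRIM58-WT, and each neighbour in that order lay outside the spread of the next. The fitted A549 difference was -5.15 (SE 0.36), or 35.5-fold, and -5.10 without mock replicate 3. Its size rests in part on TRIM58-WT replicate 1, which was not well above background, and it was -4.73 without that replicate. Within slide 1, where that replicate was the only A549 array labelled TRIM58-WT, it was -5.98. Within slide 2 it was -4.67. In HCC827 the difference was -0.85 (SE 0.13), or 1.81-fold. A549 and HCC827 thus differed in the same direction with sizes that were -4.30 (SE 0.51) apart.

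Peripherin, the type III protein of peripheral neurons, was read by probe A_23_P13713 on chromosome 12 and was well above background on all 11 arrays. PRPH was at -1.45, -1.53, -1.30 and -0.79 on A549 mock arrays 1-1, 1-2, 2 and 3. In A549 labelled TRIM58-WT it was at -2.50, -1.24 and -0.79, so that these groups overlapped. In HCC827 it was at -1.27 and -1.30 in mock cells and at -0.40 and 0.00 in cells labelled TRIM58-WT, which lay apart. The HCC827 difference was 1.08 (SE 0.18), or 2.12-fold. The A549 difference was -0.32 (SE 0.46), and its sign was not stable: it was -1.13 within slide 1, 0.14 within slide 2, -0.12 with mock replicate 3 left out, and 0.18 without TRIM58-WT replicate 1.

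Nestin, the filament protein of neural stem cells, has 2 probes on the array (chromosome 1). Probe A_33_P3358233 was well above background on 8 arrays and had levels of -2.42 to -1.90 in A549 mock, -2.53 to -1.41 in A549 labelled TRIM58-WT, -2.66 and -2.55 in HCC827 mock, and -1.98 and -3.10 in HCC827 labelled TRIM58-WT. Probe A_23_P103672 was well above background on 3 arrays, all of HCC827, at -2.20 in mock replicate 2 and at -2.11 and -2.03 in the arrays labelled TRIM58-WT. In A549 it lay at -4.40 to -2.78. The probes put the lines in opposite order: A549 mock minus HCC827 mock was 0.44 (SE 0.20) by the first and -1.25 by the second, on which A549 was below background and HCC827 mock was measured on 1 of 2 arrays, so that no fold is given.

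To set these differences against all probes, limma was fitted to the probes that were well above background throughout at least 1 compared group. Calls required a Benjamini-Hochberg adjusted p below 0.05 and a 2-fold difference or more. In A549, 5 member genes entered the fit and 2 were called, NEFL and INA, both lower, with 6.92% of all 16924 probes called, 3.49% higher and 3.43% lower. In the same comparison the groups did not overlap for 3 member probes (NEFL, INA and SYNM), as for 31% of all probes. The median difference of the 5 tested probes was -0.32, that of all tested probes 0.06. NEFL and INA passed the background filter through the mock group alone, and under a filter on every array 0 members were called. Without mock replicate 3, VIM was called as well, and 3 member genes were called, as they were with slide as a block and mock arrays 1-1 and 1-2 kept separate.

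In HCC827, limma called 0 of the 5 member genes tested. Of these, 3 (VIM, PRPH and INA) had an unadjusted p under 0.05, as had 20.3% of all probes. By limma, 0.884% of all probes were called in that comparison. The methods' t-test also called 0 members, but it called 0 of all 19563 probes there, as did the replicate block. Their counts of 0 in HCC827, here and for the lists below, thus say nothing of a list or gene. The HCC827 groups did not overlap for 5 of 6 member probes, against 56.6% of all probes. The median difference of these probes was 0.35, and that of all probes 0.01.

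Between the mock cells of the lines, A549 minus HCC827, limma called 4 of 6 member genes, NEFL, VIM, INA and SYNM, all higher in A549, where 30.3% of all probes were called and 14.1% called higher. For VIM the difference was 4.63 (SE 0.89), or 24.8-fold, and 3.73 without A549 mock replicate 3. It lost its call without either HCC827 mock replicate and by the methods' t-test. For INA the difference was 2.60 (SE 0.17), or 6.07-fold, and for SYNM 2.13 (SE 0.22), or 4.39-fold. For PRPH it was 0.09 (SE 0.25), or -0.11 without mock replicate 3, and the groups overlapped. The groups lay apart for 5 of 6 member probes, as for 69.7% of all probes. The difference of the A549 and HCC827 differences was called for NEFL and INA, both negative, with 3.86% of all probes called at an adjusted p under 0.05 alone, 1.83% positive and 2.03% negative.

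**Figure D2:**
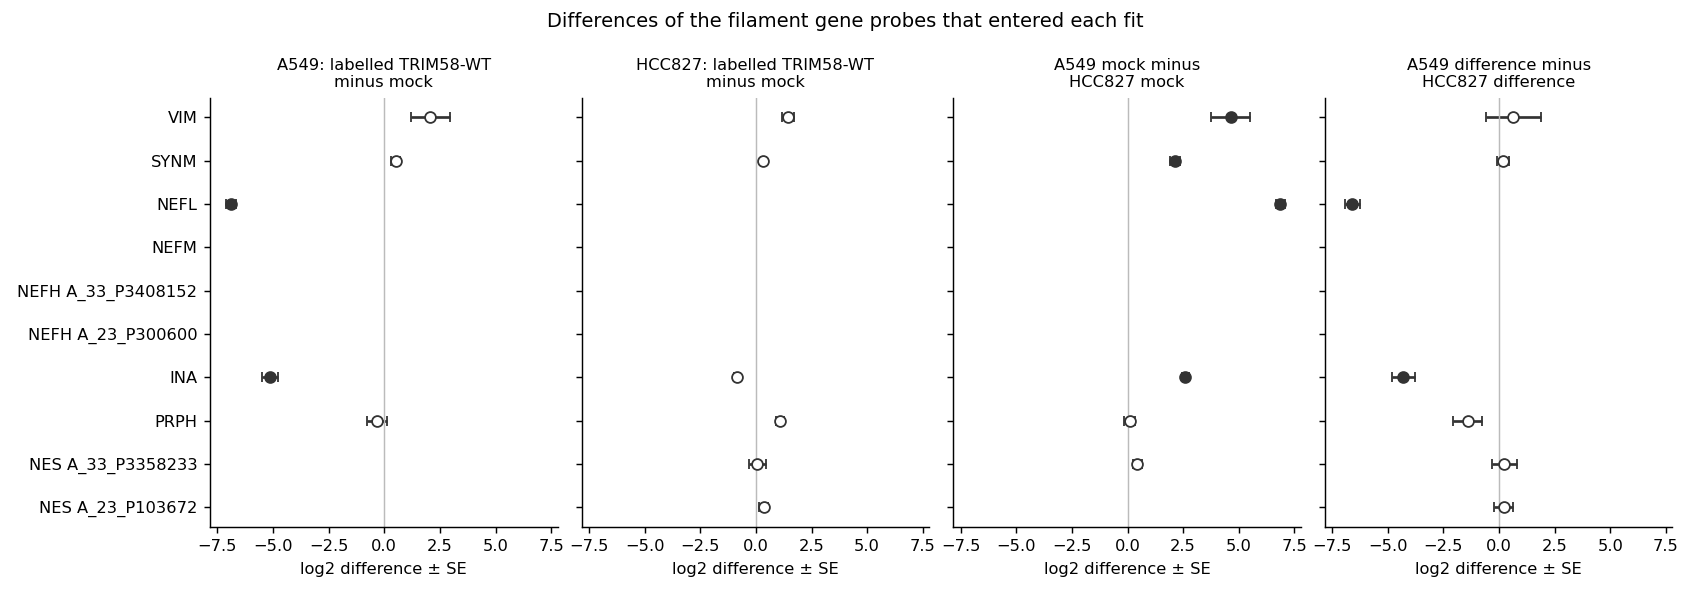
Log2 difference ± SE of each filament probe that entered the fit of a comparison, one panel per comparison, with filled circles for probes called by limma over all probes and open circles for those that were not. NEFL and INA sit on the left in A549 at -6.89 and -5.15, VIM sits on the right in every panel, and rows without a point were below the background filter.

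The keratins KRT7, KRT8, KRT18, KRT19 and KRT20, the filament proteins of simple epithelia, were taken as the comparison. Beside the counts of this and the later lists stand the shares of all probes called. They were 6.92% in A549, 0.884% in HCC827 and 30.3% between the mock lines. In A549, 3 of 4 tested keratin genes fell in the arrays labelled TRIM58-WT and none rose. KRT19, the smallest keratin, was at 7.30, 7.30, 7.52 and 6.10 on mock arrays 1-1, 1-2, 2 and 3 and at -2.56, -2.47 and -2.56 on the arrays labelled TRIM58-WT, where it was not well above background, at least 723-fold lower (limma adjusted p = 0.000151). KRT8 fell by 1.37 (SE 0.25, limma adjusted p = 0.0261) on its brightest probe, although another of its 3 probes gave 0.33 (SE 0.29). KRT18 fell by 1.22 (SE 0.21, limma adjusted p = 0.0216) on 1 probe, while its brightest gave -0.65 (adjusted p = 0.133). KRT7 gave 0.25 (SE 0.36). The median of the list was -1.01, against 0.03 over all 11201 genes tested, and 1 keratin was still called when mock replicate 1 or 2, or TRIM58-WT replicate 2 or 3, was left out. The methods' t-test called 0 genes of this list in A549, and 0 of each companion list described below. It called only 24 of all 16924 probes in A549, so a count of 0 says little of a list.

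In HCC827 these keratins were well above background on every array, except KRT20, which was not so in either line. None of the 4 tested keratins passed the limma test there, with differences of 0.24 to 0.61. The fall in A549 differed from the change in HCC827 for KRT19 (limma adjusted p = 8.29e-05, with a size set in part by A549 signals below background), for KRT8 by -1.98 (adjusted p = 0.0215) and for KRT18 by -1.63 (adjusted p = 0.0326). Lower NEFL and INA in A549 labelled TRIM58-WT were thus accompanied by lower KRT19 on the same arrays. KRT8 and KRT18 were called lower there too, though not on all of their probes, and KRT7 was not lower.

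Of 7 other filament genes, the lamins of the nucleus, desmin of muscle, GFAP of glia and the lens proteins BFSP1 and BFSP2, 5 were tested in each line and limma called 0 in A549 and in HCC827. BFSP1 was at 1.55 to 2.00 in A549 mock and 2.32 to 2.86 in A549 labelled TRIM58-WT, a difference of 0.75 (SE 0.22, adjusted p = 0.0861). LMNA gave 0.36 (SE 0.44) in A549 and 0.38 (SE 0.13) in HCC827. GFAP and BFSP2 were below background throughout. Between the mock lines, BFSP1 was higher in A549 by 1.38 (adjusted p = 0.00384), and LMNB1 was lower, with a difference of -1.24 (adjusted p = 0.0192).

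Among 18 linkers and chaperones that tie filaments to junctions, actin or each other, 14 were tested in A549, 1 rose and 1 fell. Of all probes, 6.92% were called there. Syncoilin (SYNC), which binds desmin and peripherin, rose by 2.32 (SE 0.30, limma adjusted p = 0.00947), from levels of -0.18 to 0.67 in mock cells to 2.12, 2.76 and 2.88. Periplakin (PPL), a plakin of the cornified envelope that binds vimentin and keratin, fell to levels below background, at least 1.87-fold (limma adjusted p = 0.019). Plectin (PLEC), which ties filaments to junctions and actin, gave 0.43 (SE 0.32, adjusted p = 0.476). The chaperone CRYAB, which binds vimentin and desmin, was at 1.64, 1.48, 1.75 and -1.60 in mock cells and at 0.54, -4.51 and -3.42 in cells labelled TRIM58-WT, which overlapped. The number called in this list was 5 without mock replicate 3 and 0 without mock replicate 1 or TRIM58-WT replicate 2 or 3. In HCC827, 0 of 14 were called by limma and 0 by the methods' t-test, with the 3 AHNAK probes at 0.81, 1.01 and 1.19.

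Between the mock lines 11 of 15 tested linkers differed, 6 higher and 5 lower in A549. AHNAK, a giant scaffold at the membrane, counted as higher through 1 of its 3 probes, at 4.07 (SE 0.15, adjusted p = 8.03e-05), while its brightest probe gave 0.23 (adjusted p = 0.301). The others higher included CRYAB, at least 13.9-fold (adjusted p = 0.0194), SYNC by 2.19 (adjusted p = 0.00513) and PLEC by 1.75 (adjusted p = 0.005). Those lower included PPL, with a difference of -1.80 (adjusted p = 0.00199). Since 30.3% of all probes were called in this comparison, the count describes 2 different lines.

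Of the kinases and phosphatases that act on filament proteins, 18 were tested in A549 and 1 was called, with 6.92% of all probes called. PRKCA, protein kinase C alpha, which phosphorylates vimentin, rose by 1.38 (SE 0.21, limma adjusted p = 0.0152). It was not called without mock replicate 1 or 2 or TRIM58-WT replicate 2 or 3. AURKB and ROCK1, which phosphorylate vimentin during cell division, gave 0.30 (SE 0.27) and -0.20 (SE 0.29). CDK5, the neurofilament kinase, was at 2.61 and 2.68 in HCC827 mock and 1.75 and 1.68 in HCC827 labelled TRIM58-WT, a difference of -0.93 (adjusted p = 0.0685). In HCC827 limma called 0 of 18. The motors and turnover genes, among them the motor genes KIF5B and DYNC1H1, had 0 of 8 called in A549 and 0 of 9 in HCC827.

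Of 16 regulators of the member genes, 10 were tested in A549 and 2 rose, with 6.92% of all probes called. TGFB1, the inducer of epithelial-mesenchymal transition, was at -1.33, -1.19, -1.16 and 0.72 in mock cells, mock replicate 3 again the highest, and at 1.72, 2.08 and 2.30 in cells labelled TRIM58-WT, and rose by 2.60 (SE 0.54, limma adjusted p = 0.0369), or 3.25 without mock replicate 3. SOX2, a factor of stem cells that binds the NES enhancer, was not well above background in A549 mock cells and was at least 4.04-fold higher in those labelled TRIM58-WT (limma adjusted p = 0.0164). The count for this list was 4 without mock replicate 3, 3 without TRIM58-WT replicate 1, 1 without TRIM58-WT replicate 2, and 0 without mock replicate 1 or 2 or TRIM58-WT replicate 3. ZEB1, a repressor of epithelial genes, was at -0.32 to 1.15 in mock cells and 1.08 to 1.54 in cells labelled TRIM58-WT, which gave 1.15 (SE 0.41, adjusted p = 0.14). REST, the repressor that keeps neuronal genes silent outside neurons, gave 0.46 (SE 0.19, adjusted p = 0.182) in A549 and 0.26 (SE 0.20, adjusted p = 0.488) in HCC827.

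In HCC827, TWIST1, another inducer of the mesenchymal state, fell to below background, at least 2.17-fold (limma adjusted p = 0.0287), as the only called gene of 10. The count for this list was 3 without TRIM58-WT replicate 2 and 0 without either mock replicate, with the replicate block or by the methods' t-test. SOX2 there was at 4.50 and 4.33 in mock cells and 1.03 and 2.12 in cells labelled TRIM58-WT, a difference of -2.84 (adjusted p = 0.0685). The A549 and HCC827 changes differed for SOX2 (adjusted p = 0.00821) and TWIST1 (adjusted p = 0.00648). Both had a group below background, so that the size of that difference is not measured, and the values listed for them further below are fitted ones.

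Genes that often accompany vimentin in mesenchymal cells were split. Of 8 tested in A549, 2 rose and 1 fell, with 6.92% of all probes called. N-cadherin (CDH2) rose by 2.72 (SE 0.62, limma adjusted p = 0.0472), or 3.49 without mock replicate 3, from 1.27, 1.18, 1.37 and 3.60 in mock cells to 4.71, 4.84 and 4.79. S100A4, a calcium-binding protein of motile cells, fell by 2.59 (SE 0.31, limma adjusted p = 0.00713). AXL, a receptor kinase, was at 2.00 to 4.06 in mock cells and 3.75 to 5.51 in cells labelled TRIM58-WT (difference 2.10, SE 0.69, adjusted p = 0.118). The median of the list was 1.501, with 5 genes called without mock replicate 3 and 1 without mock replicate 1 or 2 or TRIM58-WT replicate 2 or 3.

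In HCC827, 0 of 7 such genes were called by limma and 0 by the methods' t-test, and CDH2 was below background in cells labelled TRIM58-WT. Between the mock lines, 6 of 7 were called higher in A549 and none lower, where 30.3% of all probes were called and 14.1% called higher. S100A4 had a difference of 8.05 (SE 0.37, limma adjusted p = 0.000138) and CD44 of 1.44 (adjusted p = 0.00226). E-cadherin (CDH1), the adhesion molecule of epithelia, was lower in A549 mock than in HCC827 mock, with a difference of -2.19 (SE 0.20, adjusted p = 0.00105). In A549 it gave -2.33 (SE 0.62, adjusted p = 0.0716) between the cells labelled TRIM58-WT and mock, with mock arrays at 2.35 to 2.82 and the others at 1.80, -0.54 and -0.40.

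**Figure D3:**
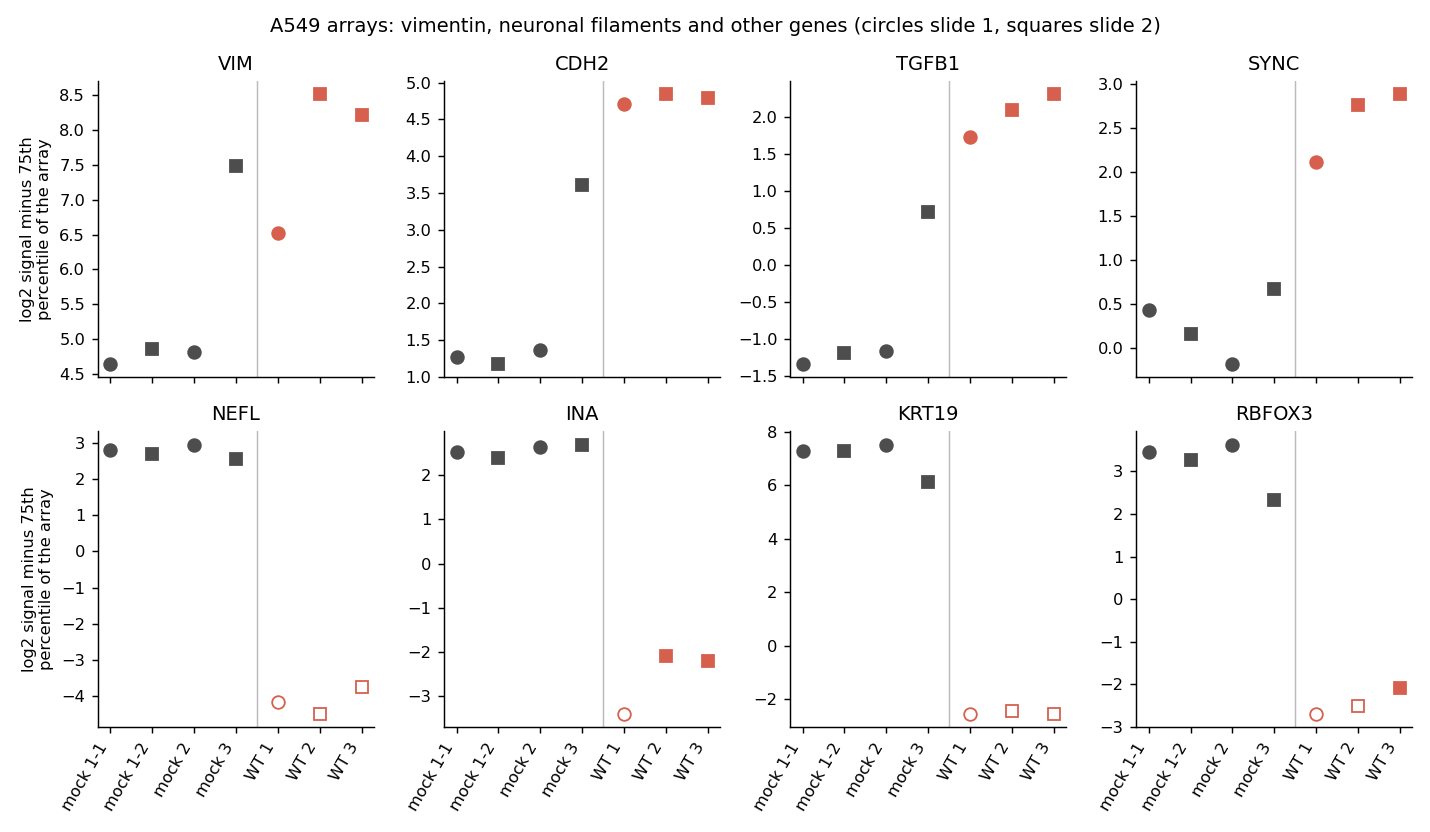
Levels (log2 signal minus the 75th percentile of the array) of 8 genes on the 7 A549 arrays, each panel with its own scale. Grey marks mock arrays and red those labelled TRIM58-WT (WT), circles slide 1 and squares slide 2, and open symbols a probe not well above background. For VIM, CDH2 and TGFB1 mock replicate 3 lies above the other mock arrays, at 7.48, 3.60 and 0.72, whereas for NEFL and INA it is the lowest and the highest mock array, at 2.55 and 2.69, far above the arrays labelled TRIM58-WT.

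The position of mock replicate 3 differed from gene to gene. For VIM it was 2.69 above the mean of the other mock replicates, where the replicates labelled TRIM58-WT were 2.96 above it, and for SYNM it was 0.49 above, against 0.68. For NEFL it was -0.30 from the other mock replicates, where those labelled TRIM58-WT were -6.99 from them, and for INA the values were 0.14 and -5.10. VIM and SYNM of this array were thus nearer to the arrays labelled TRIM58-WT, and NEFL and INA were those of mock cells.

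Because neuronal filament genes were measured, markers of the cells in which they are usually found were examined. Of 11 neuron markers, 4 to 5 were well above background on an A549 mock array and 2 to 5 on an array labelled TRIM58-WT, with a summed signal, in multiples of the 75th percentile, of 71.4 to 104 and 98.7 to 111. In HCC827 that sum was 32.5 to 37.1 in mock cells and 37.5 to 49.3 in those labelled TRIM58-WT. Most of the sum was the tubulin gene TUBB3 in both lines, so it does not give the level of the list. The mean levels of TUBB3 were 6.14 in A549 mock, 6.49 in A549 labelled TRIM58-WT, 5.08 in HCC827 mock and 5.40 in HCC827 labelled TRIM58-WT. DCX, ELAVL3, ELAVL4 and GAP43, which define differentiating neurons, were below background throughout. Of 3 tested in A549, 1 fell and none rose. RBFOX3, a splicing factor whose protein is the neuronal marker NeuN, was at 3.46, 3.28, 3.63 and 2.34 in A549 mock cells and at -2.71, -2.51 and -2.10 in those labelled TRIM58-WT, of which 1 of 3 was well above background, and fell by 5.55 (SE 0.37, limma adjusted p = 0.0011). SNAP25, a protein of synaptic vesicle fusion, was at 2.20 to 2.95 in A549 mock and 2.27 to 4.44 in A549 labelled TRIM58-WT, and was not well above background in HCC827. SYT1 was the reverse, below background in A549 and at means of -1.07 and -0.98 in HCC827 mock and labelled TRIM58-WT. Between the mock lines 3 of 5 tested neuron markers were called higher in A549 and 1 lower, with 30.3% of all probes called. MAP2 was at -2.71 to -1.28 in A549 mock and -3.77 to 1.45 in A549 labelled TRIM58-WT, which overlapped. In HCC827, MAP2, a microtubule protein of dendrites, fell to below background, at least 2.51-fold (limma adjusted p = 0.0295), a call lost without either mock replicate or TRIM58-WT replicate 1, with the replicate block and by the methods' t-test.

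Among 8 neuroendocrine markers, INSM1, NEUROD1 and SYP were below background throughout. NCAM1, a neural adhesion molecule, was at 0.04, -0.09, 0.04 and -2.16 in A549 mock cells and below background in those labelled TRIM58-WT, at least 3.77-fold lower (limma adjusted p = 0.014), the only call of 3 tested. In HCC827, DLL3, a Notch ligand of neuroendocrine tumours, was the 1 gene tested and rose by 1.33 (SE 0.14, limma adjusted p = 0.0496), a call lost with any replicate left out, with the replicate block and by the methods' t-test. The summed signal of the list was 4.13 to 4.90 in A549 mock, 3.61 to 5.91 in A549 labelled TRIM58-WT, 0.772 to 0.867 in HCC827 mock and 1.57 to 1.76 in HCC827 labelled TRIM58-WT. Most of it was DLL3, whose mean levels in these groups were 1.6, 2.13, -0.79 and 0.54. Of 10 fibroblast markers, 7 were below background throughout (COL1A2, COL3A1, DCN, FAP, PDGFRA, PDGFRB and THY1). COL1A1 was below background in A549 mock and at least 7.13-fold higher in A549 labelled TRIM58-WT (limma adjusted p = 0.0105), a call that was lost without mock replicate 1 or 2 or TRIM58-WT replicate 3. LUM, a proteoglycan of the same list that was not tested, was at 0.07, 0.07 and -0.07 on mock arrays 1-1, 1-2 and 2, and below background on mock replicate 3 and on every array labelled TRIM58-WT.

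Of 13 markers of lung epithelium, 8 to 9 were well above background on an A549 mock array, 5 to 9 on an A549 array labelled TRIM58-WT and 9 to 11 on an HCC827 array. NKX2-1, the lung lineage factor, was not well above background in A549 and was at 3.62 to 4.85 in HCC827, and SLC34A2 was not so in either. EPCAM, an epithelial adhesion molecule, was at 2.73, 2.71, 2.78 and 0.59 in A549 mock cells and at -2.005, -3.45 and -3.08 in those labelled TRIM58-WT. Of the latter, 1 of 3 was well above background. The fitted difference of EPCAM was -4.88 (SE 0.68, limma adjusted p = 0.0117), or -5.60 without mock replicate 3, sizes that rest in part on signals below background. In HCC827 EPCAM gave 0.01 (SE 0.16). With it, KRT8, KRT18 and KRT19, 4 of 7 tested markers fell in A549, a count of 1 without mock replicate 1 or 2 or TRIM58-WT replicate 2 or 3, and limma and the methods' t-test called 0 of 9 in HCC827. Between the mock lines 2 were higher in A549, KRT8 and KRT18, and 5 lower, where 30.3% of all probes were called. Their part in the differences of the filament genes was not tested.

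The genes with the profile most like each member over the 10 samples were sought among 12840 genes, by Pearson correlation and as a description only. For VIM they were NDE1, NAP1L1 and CD70, at 0.994, 0.993 and 0.992. For SYNM they were CCDC106, ANKRD16 and FADS2, at 0.996 each. NEFL, present only in A549 mock cells, was followed most closely by the Y-linked RPS4Y1 and RPS4Y2, at 0.997 and 0.995, and by CYP4F11, at 0.992. INA was followed by PKP2 and TATDN3, at 0.982 and 0.980. PRPH and NES had less close companions, led by CSNK2A2 at 0.945 and BCL2L12 at 0.939. No member was among the 3 genes nearest to another member.

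**Figure D4:**
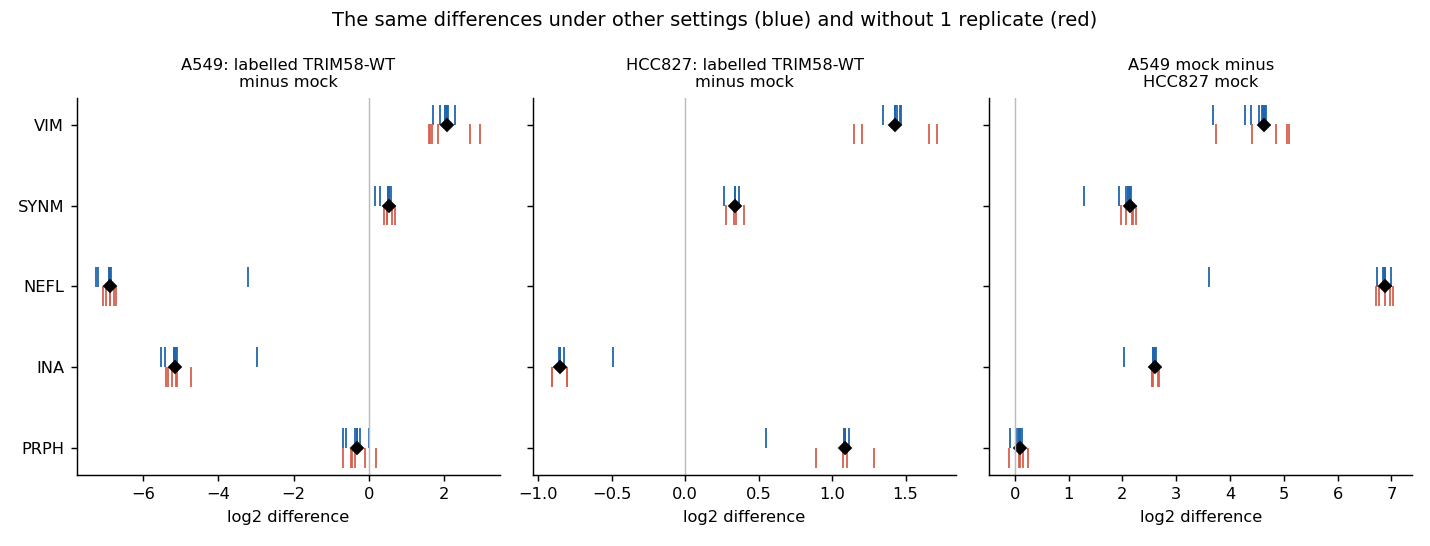
Log2 differences of 5 filament genes in 3 comparisons (diamonds), with the values under the other settings above them in blue and those without 1 replicate below them in red. VIM in A549 runs from 1.60 to 2.96 and stays above 0, NEFL and INA in A549 stay below 0 but shrink to -3.22 and -2.98 with another background correction, and PRPH in A549 crosses 0.

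The directions held under the other settings for most members. VIM was higher in A549 labelled TRIM58-WT by 1.60 to 2.96 and in HCC827 by 1.15 to 1.71 over all settings run. With a background correction that adds an offset to dim signals (normexp), the A549 difference was -3.22 for NEFL and -2.98 for INA. A shift of each array to its median in place of the 75th percentile moved the median difference of all A549 probes from 0.06 to -0.31 and the share of called probes that were higher from 50.47% to 25.61%. Under it SYNM in A549 was 0.15, and VIM, NEFL and INA kept their directions.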

How the data were processed

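Labelled RNA of 11 samples was hybridised by the authors to 1-colour Agilent arrays, and the deposited intensity of each spot (processed signal) is background-subtracted and detrended within its array by Agilent Feature Extraction, version 10.7 in the submitters' processing notes and 11.5.1.1 per the file headers, with design annotation on hg19. The deposited log2 table of the authors holds values that appear shifted by the 75th percentile of each array and by a baseline for each probe, with the exact scaling not stated, and was used only as an alternative. Normalization between arrays is not given in the sources used here.

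Outlier spots were left out, spots of a probe were averaged, and log2 of the intensity minus the 75th percentile of its array was taken, which left 28 missing values. Probes were named through RefSeq accessions, 27237 of 28302 of which matched. Differences were fitted with limma 3.58.1 in R 4.3.3 (lmFit and eBayes) with Benjamini-Hochberg adjustment over all probes that passed the background mark throughout a compared group. The fit was tested on simulated data with noise drawn independently for each probe and replicate. There 200 probes were changed by more than the 2-fold that a call required. The fit called 71.5% of them in A549, 65% in HCC827, 54% between the mock lines and 43.5% for the difference between lines. These shares do not apply to changes near 2-fold, nor to shifts that some arrays share. The number of arrays limits the precision. Tables and plots were made with Python 3.11.15, pandas 2.3.3 and matplotlib 3.10.9.

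The member genes and all companion lists were chosen with earlier results of these data known, so the adjusted p-values of companion genes are no independent evidence. Genes were named as all members with every probe, up to 5 called genes of each list by size of the difference, the 3 genes closest in profile to each measured member, TRIM58, and PLEC, KRT7, KRT8, KRT18, KRT19, CDH1, CDH2 and EPCAM. Others, such as LMNA, AURKB, ROCK1, CDK5 and REST, were chosen after their values were seen, and their values are a description as well. Some genes that the rule would name are not reported here, though they stay in the counts. Alternatives covered normalization, background correction, the filter, the samples fitted, replicate and slide blocks, the methods' t-test (Welch), outlier spots, arrays 1-1 and 1-2, the probe of a gene, and each replicate left out.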

Additional observations from a re-analysis of the deposited data

Results flagged for a closer look

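For the genes below, the difference between cells labelled TRIM58-WT and mock cells was not the same in A549 and HCC827, as tested by an interaction contrast in limma over all probes. The values below are the A549 difference minus the HCC827 difference on the log2 scale. Where a group was below background the value is the fitted one and no bound, which holds for NEFL, KRT19, PPL, NCAM1, RBFOX3, CDH2, COL1A1, SOX2 and TWIST1. It holds in part for INA and EPCAM. Of the 3 A549 arrays labelled TRIM58-WT, INA was well above background on 2 and EPCAM on 1. The values depend on arrays whose labels the TRIM58 probe did not check, and mock replicate 3 of A549 is among them.

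Of the members, NEFL had -6.591 and INA -4.298. Both are descriptions, since these genes were chosen with such values known. NEFL was below background in all groups but A549 mock, where it was at least 41.5-fold higher than in A549 labelled TRIM58-WT.

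Keratins and epithelial genes had negative values. KRT19 had -9.793 (adjusted p = 8.29e-05), KRT8 -1.984, KRT18 -1.63, EPCAM -4.887 and the plakins PPL and DSP -1.795 and -1.358. The neural genes RBFOX3 and NCAM1 had -5.222 and -3.847, and both were below background in HCC827. S100A4 had -2.564. Positive fitted values were found for CDH2 at 4.066 (adjusted p = 0.0431), COL1A1 at 4.87, SOX2 at 6.88 and TWIST1 at 4.468 (adjusted p = 0.00648). These 4 genes each had a group below background, so their sizes are not measured ones. Each of these 4 had a positive fitted difference in A549 and a negative one in HCC827, and for none of them were both called. In HCC827, COL1A1 was well above background on 1 of 2 mock arrays and on none labelled TRIM58-WT, so its direction there is not established. KRT8, KRT18, DSP and CDH2 each had another probe that did not pass the test.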

How the results depend on the processing

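Of 436 recomputed differences of member probes, 414 moved by less than the spread between replicates, 22 by more, and none of those called changed sign. Many of the 414 could not move. The filters, the fit of all 4 groups, the replicate block and the methods' t-test change only the probes tested or the error. Under each of them VIM in A549 stayed at 2.065, so the count of 414 is no measure of stability. Of the counts of called members, 73 of 78 stayed within 1.5 times the main count. The count of 2 in A549 was 0 when a probe had to be well above background on every array, a filter that NEFL and INA cannot pass, and 1 (NEFL) by the methods' t-test. That filter also gave 0 in place of 2 for the difference between lines, and 1 (PRPH) in place of 0 in HCC827, where a shift by the median gave 2 (PRPH and VIM). With each replicate left out in turn, the counts were 2 to 3 in A549, 0 to 0 in HCC827, 3 to 4 between the mock lines and 2 to 2 for the difference. The cause of the other changes was not tested.

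Deviations of same-numbered mock and TRIM58-WT replicates from their group means had correlations of 0.503, -0.423 and 0.503 in A549 and of 0.077 in HCC827. With so few replicates around each mean, these values cannot decide whether same-numbered replicates were paired. With the replicate block the member counts were 2, 0 and 2 in A549, HCC827 and the difference, and the counts over all probes went from 1171 to 1119, from 173 to 0 and from 796 to 323. In A549, mock replicates 1 and 2 both correlated best with TRIM58-WT replicate 1, at 0.503 and 0.405. Mock replicate 3 correlated best with TRIM58-WT replicate 2, at 0.57, and next with TRIM58-WT replicate 3, at 0.503.

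Over all probes, the A549 count of 1171 was 512 with normexp, 609 without a filter, 673 with the stricter filter, 24 by the methods' t-test, 1729 with mock arrays 1-1 and 1-2 separate, 1802 with slide as a block in addition, and 297 to 2193 with 1 replicate left out, the highest without mock replicate 3. The HCC827 count of 173 ran from 0 to 633, that of the mock lines, 5906, from 3003 by the methods' t-test to 6799 without A549 mock replicate 3, and that of the difference from 224 to 2216. With the median shift, 25.61%, 45.66% and 27.89% of calls were higher in A549, HCC827 and the difference, in place of 50.47%, 32.95% and 47.36%. Of 814 counts for companion lists, 607 were within 1.5 times the main count, 171 were smaller and 36 larger. Not run were the methods' t-test for the difference, the replicate block between the lines, and slide as a block within HCC827, which lay on 1 slide.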

Other observations

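Probes for a noncoding RNA that the array design names lnc-VIM-1:2, after its neighbour VIM, were not well above background on any array. Probe A_33_P3417422 was at -3.72 on A549 mock replicate 3 and at -5.45 to -5.36 on the other A549 mock arrays, and probe A_33_P3417427 at -3.44 and at -5.28 to -5.14. Signals below background carry no order between arrays.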
